A study of Mus musculus with 6 samples.

Results

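The genes described here are 10 genes of 3 families of calcium-binding or sugar-binding proteins. They are S100a4, S100a6, S100a10 and S100a11, the annexins Anxa1, Anxa2, Anxa5 and Anxa6, and the galectins Lgals1 and Lgals3. They were chosen by name, as genes often seen with effector and memory T cells, after S100a4 had been seen to be far higher in regulatory T cells than in naive T cells. They are 10 of the 26431 genes to which the deposited table assigns a value, and all 10 had at least 1 FPKM (a level per length: fragments divided by transcript length and by library size) in 2 or more libraries. Because the difference between naive and regulatory T cells chose them, that difference is given as a description, with no test.

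Total RNA was sequenced from CD4 T cells of C57BL/6 mice, taken from lymph nodes and spleens. Wild type (WT) mice were set against YAP cKO mice, which carry the YAP flox/flox alleles together with CD4-Cre+. From each genotype, naive CD4 T cells were sorted as CD62L+ CD25-, and natural regulatory T cells (nTregs) as CD25 high with CD62L either present or absent. A portion of the nTregs was cultured with plate-coated anti-CD3 (2 µg/ml), soluble anti-CD28 (2 µg/ml) and IL-2 (100 U/ml), and the others were frozen directly after the sort. The stimulation time stands as 24 h in the treatment text of the labels and as 48 h in the extraction text. Each of the 6 groups (WT naive, cKO naive, WT fresh nTreg, cKO fresh nTreg, WT stimulated nTreg, cKO stimulated nTreg) has 1 library, and the number of mice behind a library is not given in the labels. CD4-Cre acts from the CD4-expressing stage of the thymus on, so conventional and regulatory CD4 T cells are both targeted, as are CD8 T cells.

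Most S100 proteins are small calcium sensors that change shape when calcium binds and then dock onto target proteins, among them annexins, non-muscle myosin and cytoskeletal linkers. Annexins bind membranes in the presence of calcium. The annexin A2 protein and S100A10 join in a complex at the plasma membrane that takes part in membrane repair, vesicle traffic and plasminogen activation. Galectins bind beta-galactoside sugars on glycoproteins of the cell surface, and galectin-1 is known as a product of regulatory and activated T cells. YAP is a co-activator of transcription that has no DNA-binding domain of its own and acts mainly through the TEAD factors.

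Yap1, the targeted gene, was listed at 0 FPKM in the 4 libraries of naive and fresh cells. It was 0.169 FPKM in WT and 0.235 FPKM in cKO stimulated nTregs, on about 5.01 and 9 fragments, so its RNA gave no check of the genotype labels. The deposited columns give 1 genotype under another abbreviation, which was read as cKO because the partner of each such column is WT. Every direction given for cKO depends on that reading. A single fragment on 1 kb of transcript was worth 0.126 to 0.162 FPKM, an estimate from the steps between low values, and intervals from it cover counting error only. Cd3d (87.4 to 217 FPKM) and Cd4 (80.4 to 220 FPKM) were present in all libraries, and Foxp3, the lineage factor of Tregs, was 45.9 to 57.8 FPKM in nTregs and 2.98 to 3.30 FPKM in naive cells. Xist, expressed from the inactive X chromosome of female cells, was 12.5, 30.0 and 21.1 FPKM in WT and 8.76, 3.21 and 3.43 FPKM in cKO (naive, fresh, stimulated). The Y-linked gene Ddx3y was 33.2 to 79.0 FPKM in all libraries. The level of Xist thus moved with the genotype, and its part in the results on genotype was not tested.

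S100a10 had the highest level of the 10 genes in 5 of the 6 libraries and Anxa1 the lowest in all 6. S100a10, the annexin A2 partner of the S100 family, was 209.7 and 210.1 FPKM in naive cells (WT first throughout, then cKO), 551 and 793 FPKM in fresh nTregs, and after stimulation 452 and 561 FPKM. It stood at or above percentile 98.85 of all 26431 genes in each library. Anxa6, the annexin with a doubled core that binds membranes and cytoskeleton, was 188 and 225 FPKM in WT and cKO naive cells, 185 and 218 FPKM in fresh nTregs, and 68.2 and 95.3 FPKM after stimulation. It was above S100a10 in cKO naive cells, where their counting intervals met (218 to 231 FPKM for Anxa6 and 197 to 224 FPKM for S100a10). Anxa1, an annexin known from glucocorticoid action, was 0.423 and 0.359 FPKM in WT and cKO naive cells, 2.47 and 2.70 FPKM in fresh nTregs, and 0.658 and 0.339 FPKM after stimulation. In naive cells Anxa1 did not differ from Lgals3 beyond counting error, each resting on about 4 or 5 fragments (95% Poisson intervals of 0.140 to 1.01 FPKM for Anxa1 and 0.114 to 1.07 FPKM for Lgals3 in WT).

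**Figure D1:**
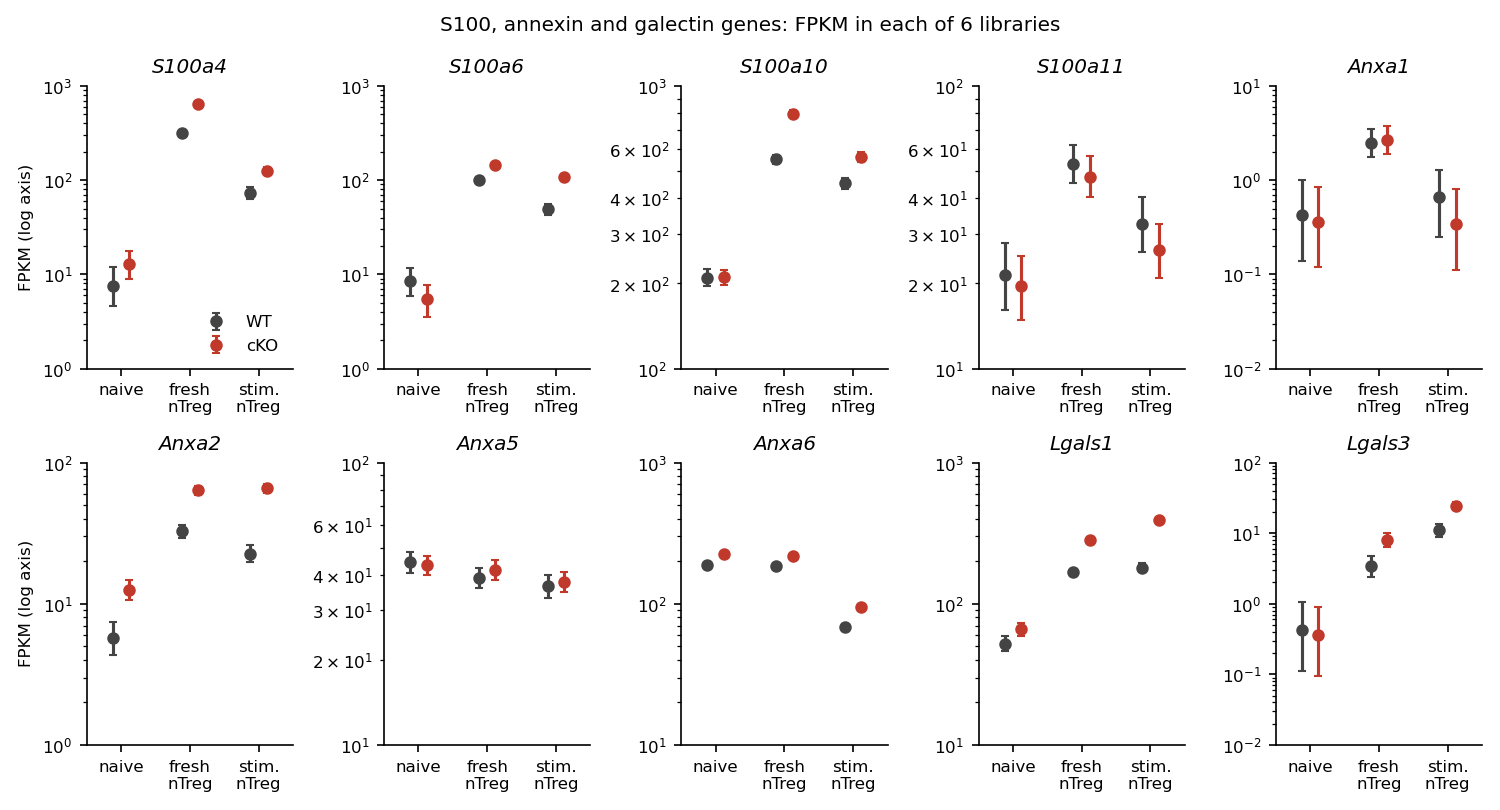
FPKM (log axis) of the 10 genes in each of the 6 libraries, by population on the horizontal axis and by genotype in colour. Each point is 1 library and its bar is the 95% Poisson interval of the estimated fragment count. S100a4 goes from 7.54 and 12.8 FPKM in naive cells to 319 and 647 FPKM in fresh nTregs, while Anxa5 stays between 36.5 and 44.4 FPKM in all 6 libraries.

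The 4 S100 genes lie on chromosome 3 of GRCm38 (mm10), in 2 pairs: S100a4 (90603770 to 90606045) with S100a6 (90612894 to 90614414), and S100a11 (93520496 to 93526288) with S100a10 (93555117 to 93564645). The stretch that spans them covers 2960.9 kb. Of the 93 annotated genes in it, these 4 included, 56 have a value in the table, 8 reached 1 FPKM in a library, and 4 reached 10 FPKM, namely the 4 genes described here. The S100 genes S100a5 and S100a8 reached 1.04 and 1.92 FPKM at most, on about 1.96 and 5.7 fragments. The skin genes Lce1l and Lce3b reached 1.08 and 1.04 FPKM. These highest values all lay in stimulated nTregs. The other members lie apart: Anxa5 on chromosome 3 at 36448923 to 36475887, Anxa2 on chromosome 9 at 69453683 to 69491792, Anxa6 on chromosome 11 at 54978953 to 55033471, Lgals3 on chromosome 14 at 47373860 to 47386167, Lgals1 on chromosome 15 at 78926725 to 78930465 and Anxa1 on chromosome 19 at 20373434 to 20390671.

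The 250 bases before the gene start are shown for the neighbours S100a4 and S100a6, for Anxa2 and Lgals3, which were higher in cKO nTregs, and for Anxa1, the window that holds the letters of the TEAD motif, since YAP acts through TEAD factors. The sequences are from RefSeq (GRCm38.p6), read 5′ to 3′ on the gene's own strand, and 7 of the 10 genes (S100a10, Lgals1 and Anxa6 being the others) were matched. Capitals mark, on either strand, the letters GGAATG (TEAD), TGANTCA (AP-1, the Fos and Jun dimer) and CACCC (the core bound by KLF factors).
S100a4, chr3:90603520-90603769, plus strand: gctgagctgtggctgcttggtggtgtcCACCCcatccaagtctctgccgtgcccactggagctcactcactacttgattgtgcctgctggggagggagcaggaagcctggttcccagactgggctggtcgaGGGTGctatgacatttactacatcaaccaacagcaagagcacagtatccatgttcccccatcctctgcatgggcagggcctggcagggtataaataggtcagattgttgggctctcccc
S100a6, chr3:90612644-90612893, plus strand: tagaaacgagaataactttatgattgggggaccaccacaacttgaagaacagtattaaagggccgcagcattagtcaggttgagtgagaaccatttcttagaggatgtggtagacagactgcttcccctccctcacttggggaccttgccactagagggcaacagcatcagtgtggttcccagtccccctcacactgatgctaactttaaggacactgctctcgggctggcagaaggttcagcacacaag
Anxa2, chr9:69453433-69453682, plus strand: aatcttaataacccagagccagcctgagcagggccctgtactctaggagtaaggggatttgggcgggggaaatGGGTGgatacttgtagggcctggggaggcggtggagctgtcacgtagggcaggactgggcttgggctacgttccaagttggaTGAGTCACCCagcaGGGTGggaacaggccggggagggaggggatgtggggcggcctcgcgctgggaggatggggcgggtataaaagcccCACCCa
Lgals3, chr14:47373610-47373859, plus strand: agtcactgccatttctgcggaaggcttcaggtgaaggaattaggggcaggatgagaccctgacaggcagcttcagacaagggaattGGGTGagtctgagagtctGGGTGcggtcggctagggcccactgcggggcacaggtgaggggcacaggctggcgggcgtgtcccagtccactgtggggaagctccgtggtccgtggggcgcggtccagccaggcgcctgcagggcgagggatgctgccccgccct
Anxa1, chr19:20390672-20390921, minus strand: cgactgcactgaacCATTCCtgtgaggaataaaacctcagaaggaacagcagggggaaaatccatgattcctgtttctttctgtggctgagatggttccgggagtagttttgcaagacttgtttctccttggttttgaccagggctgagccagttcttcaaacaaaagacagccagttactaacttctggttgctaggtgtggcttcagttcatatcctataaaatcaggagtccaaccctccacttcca
The TEAD letters occurred in 1 of the 7 promoters, that of Anxa1, from -236 to -231 on the opposite strand, and in 12.6% of all 32851 promoters of this length. AP-1 letters occurred in 2 of the 7, at -95 to -89 in Anxa2 and at 2 places in S100a11, against 6.75% of all promoters. The AP-1 letters of Anxa2 overlap a CACCC at -90 to -86. CACCC occurred in 4 of the 7 (S100a4, Anxa2, Anxa5 and Lgals3) and in 52% of all promoters. A form of the NF-kappaB site (GGG, 2 free bases, then TTTCC) occurred in 0 of the 7 and in 1.41% of all promoters, and a looser form (GGG and CC with 5 free bases between them), not capitalised, in 6 of the 7 and in 45.8% of all. In the window of S100a6, none of the 3 capitalised motifs occurred. These matches are letters in a window and not measured binding.

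Compared with naive cells, 8 of the 10 genes were at least 2-fold higher in fresh nTregs of both genotypes on the log2(FPKM + 1) scale, and none was 2-fold lower; among all 12012 genes compared, 5.4% were 2-fold higher in both. Nothing is read from that share, because this contrast chose the genes. S100a4, a binder of non-muscle myosin, was 7.54 and 12.8 FPKM in WT and cKO naive cells and 319 and 647 FPKM in fresh nTregs, a ratio of 42.2 in WT and 50.5 in cKO. S100a6, known as calcyclin, was 8.53 and 5.43 FPKM in naive cells and 99.5 and 144 FPKM in fresh nTregs, a ratio of 11.7 in WT and 26.6 in cKO. Both nTreg libraries lay far above both naive libraries for these neighbours. S100a11, a partner of annexin A1, was 21.5 and 19.6 FPKM in naive cells and 53.0 and 47.8 FPKM in fresh nTregs. The ratio was 2.47 in WT and 2.44 in cKO, close to that of S100a10 in WT (2.63) and below that of S100a10 in cKO (3.77).

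Of the annexins, Anxa2 was 5.71 and 12.6 FPKM in naive cells (WT, cKO) and 32.5 and 63.5 FPKM in fresh nTregs, a ratio of 5.69 and 5.05. Anxa1 had a ratio of 5.83 and 7.54 at levels under 3 FPKM. Anxa5, whose protein is the reagent used to stain exposed phosphatidylserine, was 44.4 and 43.3 FPKM in naive cells and 39.0 and 41.8 FPKM in fresh nTregs. Anxa5 and Anxa6 were the 2 of the 10 genes that did not reach 2-fold, with ratios of 0.878 and 0.983 in WT. Lgals1 was 52.2 and 65.8 FPKM in naive cells and 167 and 283 FPKM in fresh nTregs. Lgals3, the galectin with a collagen-like tail, was 0.429 and 0.363 FPKM in naive cells and 3.46 and 8.03 FPKM in fresh nTregs. The naive sort required CD62L and the nTreg sort did not, and a bulk library cannot tell more cells with an RNA from more RNA per cell.

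**Figure D2:**
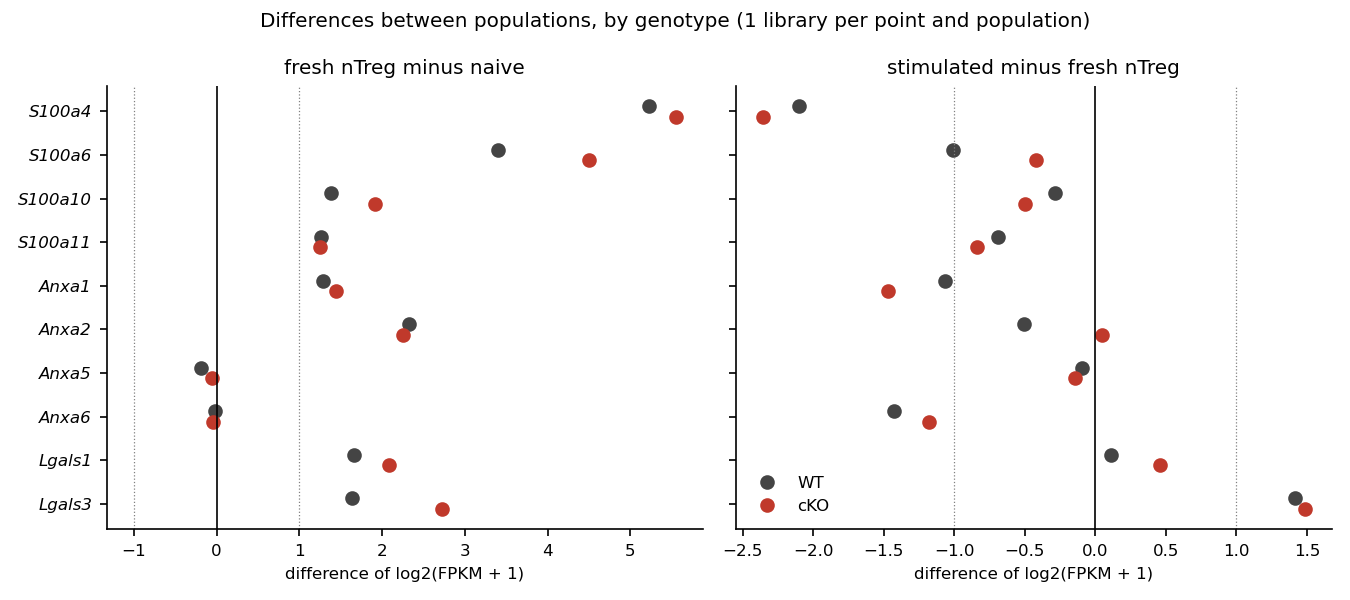
Difference of log2(FPKM + 1) between fresh nTregs and naive cells (left) and between stimulated and fresh nTregs (right) for the 10 genes, with 1 point per genotype and dotted lines at 2-fold. On the left S100a4 stands at 5.23 in WT and 5.55 in cKO and Anxa5 and Anxa6 near 0; on the right S100a4 stands at -2.10 and -2.36 and Lgals3 at 1.41 and 1.49.

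Stimulated nTregs were compared with naive cells in the same way, with the naive libraries shared between both comparisons. Among the 9 members that had 1 FPKM in a library of both pairs, 6 were at least 2-fold higher in both genotypes (9.74% of 12382 genes) and 1 was lower, Anxa6 (7.79%). Anxa1 was under 1 FPKM in these libraries and was not compared. This contrast too belongs to the one that chose the genes, and nothing is read from its shares. S100a4 had a ratio to naive of 9.75 in WT and 9.78 in cKO. Lgals3 reached ratios of 25.4 and 66.9, the naive value resting on about 4 fragments.

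The rule that chose the genes did not name the genotype comparison, but earlier results of these data were known at that choice. The cKO fresh nTreg library also stands in the contrast that chose them. The shares below are therefore a description. In cKO cells, 5 of the 10 genes were higher than in WT by any size in all 3 populations (S100a4, S100a10, Anxa2, Anxa6 and Lgals1), against 18.9% of the 11963 genes tested. By any size, 1 was lower in all 3 (S100a11, against 16.4%). In naive cells S100a10 counts as higher at a cKO to WT ratio of 1.002, with a 95% counting interval that spans 1 (0.912 to 1.10). The naive interval of S100a4 spans 1 too (0.924 to 3.03). No member passed an adjusted p of 0.05 in the additive limma model with Benjamini-Hochberg adjustment over 11963 genes, in which 0.0836% of all genes rose and 0.0418% fell. At an unadjusted p under 0.05 the limma model held 5 members higher in cKO (S100a4, Anxa2, Anxa6, Lgals1 and Lgals3; 6.4% of all genes) and 1 lower (S100a11; 4.2%). The model takes its error from how the genotype difference varied over the 3 populations, with 2 residual degrees of freedom, so its p-values do not measure spread between mice.

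S100a4 was 7.54 FPKM in WT and 12.8 in cKO naive cells, 319 and 647 FPKM in fresh nTregs, and 73.5 and 125 FPKM after stimulation. The cKO library was the higher of the pair in each population. The ratio of cKO to WT was 1.70 in naive cells (95% exact counting interval 0.924 to 3.03, on about 18.6 and 37.3 fragments), 2.03 in fresh nTregs (1.88 to 2.20) and 1.70 after stimulation (1.42 to 2.05). The mean difference was 0.82 on the log2(FPKM + 1) scale (SE 0.08; limma adjusted p = 0.0928). When transcripts were named from the reference annotation, the same difference had a limma adjusted p of 0.0259. Over all alternatives that p ranged from 0.0259 to 0.678 and the difference from 0.73 to 0.89.

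Anxa2 was 5.71 FPKM in WT and 12.6 in cKO naive cells, 32.5 and 63.5 FPKM in fresh nTregs, and 22.6 and 65.7 FPKM after stimulation. The counting intervals of the cKO to WT ratio lay above 1 in all 3 populations, with ratios of 2.21 (1.61 to 3.06), 1.95 (1.73 to 2.21) and 2.90 (2.49 to 3.38). It had the highest mean difference of the 10 genes, 1.15 (SE 0.12; limma adjusted p = 0.106). With reference gene names its limma adjusted p was 0.0300, within a range of 0.0300 to 0.678 over all alternatives. Its partner S100a10 had ratios of 1.00 (0.912 to 1.10) in naive cells, 1.44 (1.37 to 1.51) in fresh nTregs and 1.24 (1.17 to 1.32) after stimulation, with a mean difference of 0.28 (SE 0.11; limma adjusted p = 0.476).

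Lgals1 was 52.2 and 65.8 FPKM in WT and cKO naive cells, 167 and 283 FPKM in fresh nTregs, and 180 and 389 FPKM after stimulation. The cKO to WT ratios were 1.26, 1.70 and 2.15, each with a counting interval above 1. The mean difference was 0.73 (SE 0.15; limma adjusted p = 0.283). Lgals3 was 0.429 and 0.363 FPKM in naive cells, 3.46 and 8.03 FPKM in fresh nTregs, and 10.9 and 24.3 FPKM after stimulation. The naive libraries held about 4 fragments each and could not show a difference (ratio 0.847, interval 0.158 to 4.54), while the nTreg ratios were 2.32 (1.57 to 3.56) and 2.23 (1.75 to 2.85). Its mean difference over the 3 populations was 0.68 (SE 0.26; limma adjusted p = 0.461).

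S100a6 was 8.53 FPKM in WT and 5.43 in cKO naive cells, 99.5 and 144 FPKM in fresh nTregs, and 48.9 and 107 FPKM after stimulation. It was the lower in cKO naive cells, with a counting interval that spans 1 (ratio 0.636, 0.371 to 1.08), and the higher in cKO nTregs, with ratios of 1.45 (1.30 to 1.63) and 2.19 (1.86 to 2.58). The mean difference was 0.36 (SE 0.32; limma adjusted p = 0.701), and it became -0.02 without either stimulated library. Anxa6 had ratios of 1.20, 1.18 and 1.40, with intervals above 1 (the lowest bound was 1.13), and a mean difference of 0.32 (SE 0.07; limma adjusted p = 0.302).

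S100a11 was the member lower in cKO in all 3 populations. It had ratios of 0.911 (naive), 0.902 (fresh) and 0.807 (stimulated), each with a counting interval that spans 1, and a mean difference of -0.19 (SE 0.07; limma adjusted p = 0.449). Anxa5, slightly lower in cKO naive cells and slightly higher in cKO nTregs, had ratios of 0.976, 1.07 and 1.04, and intervals from 0.867 to 1.20 over the 3 populations. Its mean difference was 0.04 (SE 0.06; limma adjusted p = 0.846). Anxa1 rested on about 4.91 to 36.9 fragments a library, and its mean difference was -0.09 (SE 0.15; limma adjusted p = 0.849).

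Within a population, at least 2-fold on the log2(FPKM + 1) scale was reached by Anxa2 in naive cells (1 of 8 members compared, against 1.52% of all genes), by S100a4 and Lgals3 in fresh nTregs (2 of 10, against 1.39%), and by S100a6, Anxa2, Lgals1 and Lgals3 in stimulated nTregs (4 of 9, against 2.25%). By any size, 5 of 8 members compared were higher in cKO in naive cells, 9 of 10 in fresh and 8 of 9 in stimulated nTregs, against 49.7%, 49.9% and 54.7% of all genes. No member was 2-fold lower in cKO in any population (background 1.39%, 1.24% and 1.48%). With each library scaled to an equal FPKM sum, 1 member reached 2-fold in fresh and 1 in stimulated nTregs. The all-gene median in stimulated nTregs was -0.10 on that scale. With median-of-ratios scaling the counts were 2 and 4, as deposited. On the deposited scale, the median difference of the 10 genes was 0.53 in fresh and 0.62 in stimulated nTregs and -0.02 in naive cells. That of all genes tested was 0.00, 0.03 and 0.00 in the same order.

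**Figure D3:**
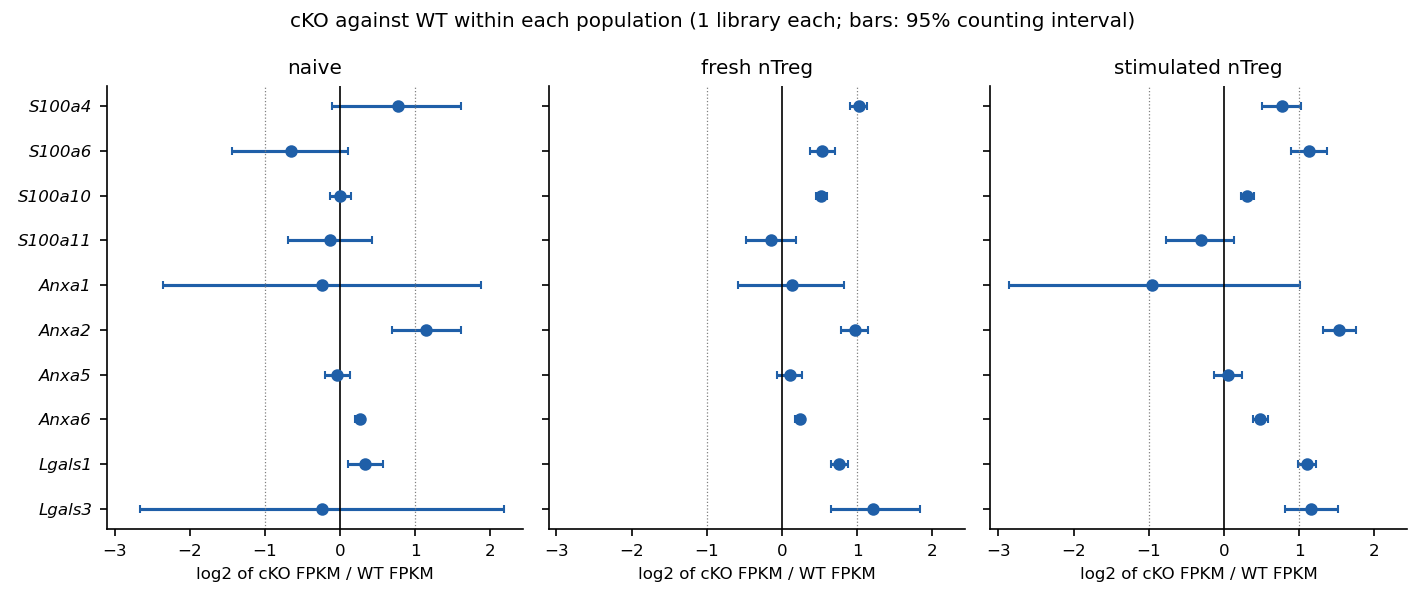
log2 of the ratio of cKO FPKM to WT FPKM for the 10 genes by population (panels); each point compares 1 library with 1 library, bars are 95% exact counting intervals and dotted lines mark 2-fold. Anxa2 lies above 0 with its whole interval in the 3 panels (ratios 2.21, 1.95 and 2.90), S100a11 lies just below 0 in each, and the bars of Anxa1 and Lgals3 in naive cells are wide because they rest on about 4 or 5 fragments.

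Markers of effector and memory T cells were read in the same libraries. Of 21 such genes tested, 17 were higher in cKO fresh nTregs (49.9% of all genes compared), 17 in cKO stimulated nTregs (54.7%) and 13 in cKO naive cells (49.7%), with median differences of 0.57, 0.50 and 0.09. Those with the largest differences in fresh nTregs included Gzmb, a granzyme, at 9.80 and 42.9 FPKM in WT and cKO, and the chemokine receptor Ccr2 at 23.4 and 50.2 FPKM. None of the 21 passed the genotype test of the additive limma model, and 9 were higher in cKO at an unadjusted p under 0.05 (6.4% of all genes). The 14 naive T cell genes had median differences of 0.11 (naive), -0.06 (fresh) and -0.25 (stimulated). The part of a shift in the mix of nTregs in the values of the 10 genes was not tested. Markers of other cell types were summed by list, and their part in the results was not tested. The 8 neutrophil markers summed to 0 to 0.333 FPKM in naive and fresh libraries and to 9.08 and 10.7 FPKM in WT and cKO stimulated nTregs, mostly from Ltf (7.50 and 6.56 FPKM). S100a8 and S100a9 were listed at 0 in the 4 naive and fresh libraries. They reached 1.92 and 0.850 FPKM in cKO stimulated nTregs, on about 5.7 and 2.8 fragments. In the depth estimate, genes at a few fragments numbered 5428 and 5139 in the stimulated libraries (WT, cKO) and 2068 to 2323 in the others. Of 10 myeloid and dendritic markers 6 were under 1 FPKM in every library, and the summed level, mostly Cst3 (30.1 to 51.2 FPKM), was 33.9 to 54.9 FPKM. NK markers summed to 20.1 and 12.2 FPKM in WT and cKO naive cells, mostly Prf1 (11.6 and 9.49 FPKM), and to 4.44 to 5.95 FPKM in nTregs. Cd8a was at most 0.362 FPKM and Cd8b1 3.23 to 8.90 FPKM. Of the 6 stromal and endothelial markers, Pecam1 stood at 33.3 to 79.1 FPKM and the other 5 were under 1 FPKM in every library. Summed B cell markers were 7.51 to 7.79 FPKM in naive cells, 39.6 and 48.0 FPKM in cKO and WT fresh nTregs, and 11.03 to 11.24 FPKM after stimulation.

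After stimulation, 4 of the 10 genes fell against fresh nTregs and 1 rose, by the additive limma model with Benjamini-Hochberg adjustment, while 23.9% of the 11963 genes fell and 19.3% rose. At an unadjusted p under 0.05, 5 members were lower (29.2% of all genes) and 1 higher (23.4%), and at 2-fold in both genotypes 3 were lower (S100a4, Anxa1 and Anxa6; 5.19%) and 1 higher (Lgals3; 4.21%). The fresh libraries also stand in the contrast that chose the genes, so for S100a4 in particular this fall is no independent result. S100a4 went from 319 to 73.5 FPKM in WT and from 647 to 125 FPKM in cKO, a ratio of 0.231 and 0.194, and fell by 2.23 on the log2(FPKM + 1) scale (SE 0.10; limma adjusted p = 0.000463). Both stimulated libraries lay above both naive libraries, at 7.54 and 12.8 FPKM. S100a11 went from 53.0 to 32.5 FPKM in WT and from 47.8 to 26.2 FPKM in cKO and fell by 0.76 (SE 0.08; limma adjusted p = 0.00278).

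Among the annexins, Anxa6 went from 185 to 68.2 FPKM in WT and from 218 to 95.3 FPKM in cKO, and fell by 1.30 (SE 0.09; limma adjusted p = 0.00102). It was thus lower in stimulated nTregs than in both naive libraries (188 and 225 FPKM), unlike S100a4. Anxa1 fell by 1.27 (SE 0.19; limma adjusted p = 0.00652), from 2.47 to 0.658 FPKM in WT and from 2.70 to 0.339 FPKM in cKO, and without the cKO fresh nTreg library its adjusted p was 0.0663 (range over alternatives 0.00183 to 0.0663). Anxa5 and Anxa2 did not pass the model. Anxa2 went from 32.5 to 22.6 FPKM in WT and from 63.5 to 65.7 FPKM in cKO, a mean difference of -0.23 (SE 0.15; limma adjusted p = 0.278). Without the cKO stimulated library it was -0.48 with an adjusted p of 0.0264 (range over alternatives 0.0264 to 0.826), and without the WT stimulated library 0.03.

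Lgals3 was the member that rose, from 3.46 to 10.9 FPKM in WT and from 8.03 to 24.3 FPKM in cKO, a ratio of 3.15 and 3.02 and a mean difference of 1.45 (SE 0.31; limma adjusted p = 0.0190). That call was lost without the WT fresh (adjusted p = 0.108), the cKO fresh (0.0504) or the cKO stimulated library (0.0966), and with no filter on low values (0.0858), within a range of 0.00268 to 0.108. Lgals1 went from 167 to 180 FPKM in WT and from 283 to 389 FPKM in cKO, a mean difference of 0.28 (SE 0.18; limma adjusted p = 0.265). S100a6 went from 99.5 to 48.9 FPKM in WT and from 144 to 107 FPKM in cKO, a mean difference of -0.72 (SE 0.39; limma adjusted p = 0.193). Without either naive library its limma adjusted p was 0.0343 or 0.0347, in a range of 0.0343 to 0.781. S100a10 had a mean difference of -0.39 (SE 0.14; limma adjusted p = 0.0715, and 0.04999 with reference gene names, in a range of 0.04999 to 0.439).

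The scale of the libraries bears on these steps. In fresh nTregs the deposited FPKM summed to 837179 and 843887, and to 534274 and 595524 after stimulation. With every library set to an equal sum, the median of all genes moved from -0.05 to 0.45, 6346 genes rose and 1005 fell by limma, against 2314 and 2855 as deposited. On that scale the median of the 10 genes was 0.02, Lgals3, Lgals1 (0.86, limma adjusted p = 0.00512) and Anxa5 (0.44, limma adjusted p = 0.00776) rose, and S100a11 (-0.20, limma adjusted p = 0.167) no longer passed. Relative to the all-gene median of 0.45 Anxa5 is then near 0, and S100a11 is still below that median. With median-of-ratios scaling, 4 members fell and 1 rose by limma, as with the deposited values. S100a4, Anxa1 and Anxa6 fell on every scale tried, S100a4 by 1.66 at the least. For S100a4 this is no independent result, because its high level in nTregs led to the choice of the genes. The response to stimulation differed between genotypes by less than 2-fold for all 10 genes, from -0.40 for Anxa1 to 0.58 for S100a6 and 0.55 for Anxa2 on the log2(FPKM + 1) scale, which 1 library a group leaves without a test (2.62% of all genes were 2-fold above and 2.29% below).

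The other genes of the 3 families were few at a measurable level. Of 13 other genes with an S100 name, S100pbp for an S100-binding protein included, 6 reached 1 FPKM in a library. The same held for 4 of 8 other annexins and for 6 of 9 other galectin and related genes found, among them Lgals3bp, which encodes a galectin-3-binding protein and no galectin. None of the 13 genes of these that could be tested passed the genotype model in limma, and 2 had an unadjusted p under 0.05 (S100a13 and Lgalsl). S100a13, whose protein takes part in the release of growth factors without a signal peptide, was 44.9 to 80.5 FPKM and S100pbp 16.9 to 29.1 FPKM. S100a3 (at most 1.16 FPKM), S100a5 and S100a8 reached 1 FPKM only in stimulated libraries and were not tested. S100a1 was 0 to 1.01 FPKM before and 4.87 and 4.72 FPKM after stimulation (WT, cKO) and rose by 1.75 (limma adjusted p = 0.00294).

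Anxa3 was 0.182 and 0 FPKM in WT and cKO naive cells, 0.292 and 0.155 FPKM in fresh nTregs, and 9.31 and 13.01 FPKM after stimulation, and rose by 3.30 with stimulation (limma adjusted p = 0.00106). Anxa4 was 0.636 and 0.180 FPKM in naive cells, 7.15 and 6.91 FPKM in fresh nTregs, and 12.1 and 13.1 FPKM after stimulation, a rise of 0.76 (limma adjusted p = 0.0242). That call was lost without the WT fresh, cKO fresh or cKO stimulated library, with no filter on low values and with a pseudocount of 0.1, with limma adjusted p of 0.0797 to 0.165. Anxa7 (15.8 to 30.6 FPKM) rose by 0.65 (limma adjusted p = 0.00562, and 0.0553 without the cKO fresh library). Anxa11 (13.4 to 21.7 FPKM) fell by 0.46 (limma adjusted p = 0.0120), a call lost without the WT fresh (0.117) or the cKO fresh library (0.0857), and stood at 0.09 on the equal-sum scale. Of the 6 galectin and related genes tested, the galectins Lgals9, Lgals8 and Lgals4 and the ligand gene Lgals3bp fell (by 0.69, 0.53, 0.48 and 0.60; limma adjusted p = 0.0103, 0.0291, 0.0380 and 0.0185). None of these 4 falls passed on the equal-sum scale, where Lgals8 stood at 0.02 and the all-gene median at 0.45. Anxa11, at 0.09, lay below that median too. With no filter on low values none of the 4 passed either (limma adjusted p of 0.0503 to 0.0933). The call of Lgals9 was also lost without the WT fresh library (0.0788), those of Lgals8 and Lgals3bp without either fresh or the cKO stimulated library (0.0521 to 0.175), and that of Lgals4 without any 1 of the 6 libraries (0.0692 to 0.261) and with median-of-ratios scaling (0.0536). Lgalsl, the galectin-like gene, was 0.598 and 2.43 FPKM in naive cells, 4.16 and 7.01 FPKM in fresh nTregs and 4.33 and 6.86 FPKM after stimulation, with a genotype difference of 0.77 (limma adjusted p = 0.268). Grifin stood at 1.06 to 1.84 FPKM.

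A list of 32 partners and ligands of these proteins was counted too, of which 26 were tested. By limma 0 of the 26 passed the genotype model, and 7 were higher in cKO at an unadjusted p under 0.05 (6.4% of all genes). With stimulation 13 fell and 3 rose, against 23.9% and 19.3% of all genes. Ahnak, the giant scaffold that binds S100A10 with annexin A2, was 15.9 and 20.5 FPKM in naive cells, 169 and 245 FPKM in fresh nTregs and 113 and 142 FPKM after stimulation. Ahnak was higher in cKO in each population, with a mean difference of 0.40 (limma adjusted p = 0.219). The largest stimulation differences on the list were those of Cd7, a galectin-1 receptor (-3.28, limma adjusted p = 0.000333), Lmna (-2.07, limma adjusted p = 0.00448), Actn1 (-1.89, limma adjusted p = 0.000546) and Vim, an intermediate filament protein (1.57, limma adjusted p = 0.000503). The 4 largest genotype differences were 0.61 for Crip1, 0.46 for Gcnt1, an enzyme that builds O-glycans bound by galectin-1, 0.46 for Vim and 0.43 for Havcr2, the receptor Tim-3.

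Genes with the most similar pattern to S100a4 over the 6 libraries, among 7494 genes with at least 10 FPKM in a library, were Pmaip1 (Pearson r of log2(FPKM + 1) 0.996), Stam2, Rln3, Slc4a7 and Agfg1. Those most like Lgals1 were Pnp (0.997), Lmnb1, Acot9, Impa1 and Slc16a6. Pmaip1 went from 3.86 and 6.00 FPKM in naive cells to 39.2 and 50.6 FPKM in fresh nTregs and to 13.8 and 23.5 FPKM in stimulated nTregs. The 6 libraries hold 3 populations of 2 genotypes, so such values describe these libraries only. Among the 10 genes, S100a10 and S100a6 were the most alike (0.985) and Anxa5 and Lgals3 the least (-0.818).

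The table splits Anxa6 and Lgals3 into 2 transcripts each. The Anxa6 transcripts differ in 1 exon of 18 nt, exon 21 of 26, at chr11:54987051-54987068, inside the coding part of the second annexin core. The transcript with this exon held 47.9% and 47.6% of the Anxa6 FPKM in WT and cKO naive cells, 52.3% and 54.9% in fresh nTregs, and after stimulation 64.3% and 60.7%. Its share was thus higher after stimulation in both genotypes, while the 25-exon transcript went from 88.2 to 24.3 FPKM in WT and from 98.1 to 37.5 FPKM in cKO. The split was assigned by the authors' quantification, and the reads over exon 21 and the error of the split are not known. The Lgals3 transcripts differ in both ends of exon 1 and in the end of exon 6. The shorter, of 1298 nt, held 0.510% and 0.405% of Lgals3 in WT and cKO naive cells, where the gene rests on about 4 fragments a library, 99.99% and 99.9% in fresh nTregs, and 86.7% and 79.3% after stimulation.

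**Figure D4:**
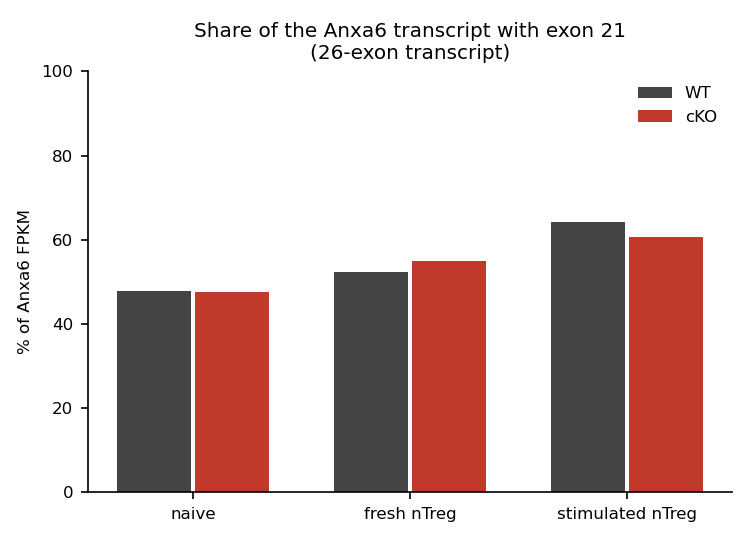
Share of the Anxa6 FPKM given to the transcript that holds exon 21 of 26, in % (bars from 0), by population and genotype, with 1 library per bar and no error bar because the split has no replicate. The bars stand at 47.6% to 54.9% in naive and fresh cells and at 60.7% and 64.3% after stimulation.

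Near-identical copies can share reads with a gene. In a search of the reference transcripts (at least 90% identity over at least 100 nt), 2 of the 10 genes matched a gene of another name. Positions were not compared, so a copy elsewhere was not told apart from an annotation that overlaps the gene itself. S100a11 had 5, with identities of 90.6% to 98.99% over 227 to 303 nt, and S100a4 shared 302 nt at 100% with the annotated gene Gm42674. None of these matched genes has a row of its own in the table, so how the authors' alignment shared such reads is not recorded. The levels of S100a4 and S100a11 are uncertain to that extent.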

How the data were processed

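Per the labels' protocols, stranded total RNA libraries were made from 322 ng of RNA depleted of ribosomal RNA, with 12 PCR cycles. The submitters' processing notes name FastQC, TopHat, Cuffdiff, Cuffnorm and the build mm10, with no order or role, and tool versions are not given in the sources used here. The deposited values are FPKM per RefSeq transcript, scaled by the authors across the 6 libraries, and depend on transcript length and on the other RNA of the library.

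The 32860 rows held 32547 transcripts. The FPKM of each deposited symbol were summed to 26431 genes. The 3495 transcripts that carry no symbol are included in that number, each as a gene of its own. Depth was estimated from how low values step between genes, and of these 72.7% to 74.8% were within 0.1 of a whole number of fragments, too few for a count test. Single libraries have 95% Poisson intervals, which cover counting error only. limma 3.58.1 (R 4.3.3) was fitted to log2(FPKM + 1), which understates changes of low genes, with population and genotype as terms and an intensity trend, over the 11963 genes with at least 1 FPKM in 2 libraries. Calls needed a Benjamini-Hochberg adjusted p under 0.05. Within a population, genes with at least 1 FPKM in 1 library were compared without a test. The genes and gene lists were chosen with earlier results of these data known. Named were the 10 genes, other family genes at 1 FPKM, up to 4 genes a list with the largest difference, and the 5 most similar patterns to S100a4 and to Lgals1. Alternatives were another pseudocount (0.1), other filters, 2 scalings, reference gene names, no intensity trend and each library left out. Copies were searched with BLAST 2.17.0.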

Additional observations from a re-analysis of the deposited data

Results flagged for a closer look

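For 4 genes the cKO library was above WT in one population and below it in another, and the differences between populations were not tested, because each group has 1 library. On the log2(FPKM + 1) scale, cKO minus WT for S100a6 was -0.57 (naive), 0.53 (fresh nTregs) and 1.12 (stimulated nTregs). The counting interval of its naive cKO to WT ratio spans 1 (0.371 to 1.08). For Lgals3 cKO minus WT was -0.07, 1.02 and 1.09 in the same order, with the naive value resting on about 4 fragments a library. For Anxa1 it was -0.07, 0.09 and -0.31, and for Anxa5 -0.03, 0.10 and 0.05, all within counting error. The step from fresh to stimulated nTregs of Anxa2 was -0.50 in WT and 0.05 in cKO, which was not tested either.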

How the results depend on the processing

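No pairing by animal was possible because each group has 1 library and the labels give no replicate numbers. The limma model, with population and genotype as terms, compared genotypes within populations and populations within genotypes. With reference gene names 29 genes rose and 13 fell in cKO (10 and 5 as reported) and 2 members rose (0 as reported). With no filter 0 rose and 0 fell, and with no intensity trend 4 and 1. Without each library in turn, 3 to 6 genes rose and 1 to 4 fell in cKO. With an equal FPKM sum, members 2-fold higher in cKO numbered 1 in fresh nTregs (2 as reported) and 1 in stimulated nTregs (4 as reported). With median-of-ratios scaling they numbered 2 and 4. Genes 2-fold higher in cKO numbered 283, 301 and 450 in naive, fresh and stimulated cells with a pseudocount of 0.1 (170, 162 and 265 as reported), 62, 69 and 147 with at least 5 FPKM, and 69, 69 and 134 with reference gene names. Genes 2-fold lower numbered 275, 254 and 385 with a pseudocount of 0.1 (155, 144 and 175 as reported), 54, 38 and 54 with at least 5 FPKM, 56, 43 and 77 with reference gene names, and 360 in stimulated nTregs with an equal FPKM sum. Against naive cells, 997 genes were 2-fold higher and 293 lower in fresh nTregs with a pseudocount of 0.1 (649 and 158 as reported). With stimulation, an equal FPKM sum gave 6346 genes that rose and 1005 that fell (2314 and 2855 as reported), and leaving out each library 879 to 1967 and 1161 to 2576, the lowest without a fresh library. Members that rose with stimulation numbered 3 with an equal sum, 0 with no filter and 0 without a fresh or the cKO stimulated library (1 as reported). Signs turned in cKO minus WT for S100a6 (-0.018) and Anxa1 (0.013) without either stimulated library, in ranges of -0.018 to 0.83 and -0.19 to 0.013 without each library in turn, and for Anxa5 (-0.014) with an equal sum. In stimulated minus fresh nTregs they turned with an equal sum for S100a10 (0.18), Anxa2 (0.33), Anxa5 (0.44), Anxa11 (0.088) and Lgals8 (0.017). The all-gene median with an equal sum was 0.45, above each of these values. For Anxa2 the sign also turned without the WT stimulated library (0.030), in a range of -0.48 to 0.030. The causes of these moves were not tested. Leaving out a library leaves its population with 1 library, assumed to vary like the others. Depth limits Anxa1 and Lgals3 in naive cells.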
